A study of Mus musculus with 4 samples.

Results

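Genes of the presynaptic vesicle and release machinery were followed in primary mouse cortical neurons. The group was set by name, with 43 symbols. They stand for synaptic vesicle proteins, synaptotagmins with Doc2 and rabphilin, SNARE proteins, active zone proteins, vesicular glutamate transporters and endocytic proteins. Each symbol was to be used if it reached 1 FPKM in any library. FPKM is a read or fragment count scaled to transcript length and library depth. All 43 symbols were in the table of 22552 genes and all 43 reached that level, as did 13248 genes in all. The study compared 2 genotypes, wild type and Brg1-cko (BAF53bCre Brg1F/F), here called cKO. In the cKO, floxed alleles of Smarca4 (Brg1, a motor subunit of the BAF chromatin remodeller) meet a Cre recombinase driven by BAF53b (Actl6b), a gene of neurons, so Cre is not aimed at the glia of a culture. Each genotype was sampled at basal KCl and after 50 mM KCl for 6 h, which depolarizes neurons. Per the labels, the neurons were taken at E16.5, and for depolarization TTX at 1 µM (a sodium channel blocker) and APV at 100 µM (an NMDA receptor blocker) were given on day 5 in vitro, and KCl followed on day 6. Whether the basal cultures had these blockers too is not spelled out for each sample. There was 1 library for each of the 4 groups. No difference could therefore be set against a spread between cultures, and no p-value is given. Higher and lower describe these libraries.

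A presynaptic terminal stores transmitter in synaptic vesicles and releases it when calcium enters. The vesicle SNARE synaptobrevin (Vamp2) pairs with syntaxin (Stx1a) and Snap25 on the plasma membrane, synaptotagmin 1 senses calcium, and complexins clamp and then promote fusion. Rim, Munc13, Bassoon, Piccolo and ELKS proteins form the active zone, where vesicles dock and are primed. Nsf and its adaptors take spent SNARE complexes apart, and clathrin adaptors, amphiphysin and dynamin retrieve the membrane.

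The labels were checked first. The FPKM values summed to between 302041 and 330621 per library, and the depths approximated from the table were 21100000 to 23200000 fragments. Smarca4, the targeted gene, read 34.0 (basal) and 28.5 FPKM (KCl) in wild type against 10.5 and 10.4 in the cKO, and the activity gene Fos at 2.40 and 203.4 in wild type and at 3.69 and 224.1 in the cKO. Npas4 and Bdnf, other activity genes, were also higher in both KCl libraries (Npas4 0.97 to 75.7 and 0.69 to 58.4, Bdnf 0.73 to 27.0 and 1.12 to 12.4), and Actl6b lay between 30.9 and 33.8 throughout. All 19 measured pan-neuronal markers were above 1 FPKM. Markers of other cells were present. Summed over 10 astrocyte markers the level was higher after KCl, at 1759 (basal) and 2461 FPKM (KCl) for wild type and 1966 and 2542 for the cKO, and over 12 microglial markers it was 239.0 and 283.2 for wild type against 479.7 and 620.5 for the cKO. The sex-linked genes Xist and Eif2s3y, picked with their values known, split by genotype (Xist 83.3 and 78.1 against 0.14 and 0.29, Eif2s3y 0.052 and 0 against 32.9 and 39.0), so sex and genotype cannot be told apart.

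Most of the group stood at 10 FPKM or more, while 6 to 9 members per library were under it. In the wild-type basal library the members ran from 1.64 FPKM (Sv2c) to 281.5 (Vamp2), with a median of 44.7, and together they made up 0.901% of the summed FPKM of the table. Between 7 and 9 members per library stood at 100 FPKM or more. Vamp2 was the highest member in both basal libraries, at rank 80 of all genes in wild type and 97 in the cKO. Syt4, an unusual synaptotagmin of dense core vesicles whose level follows activity, was the highest in both KCl libraries, at rank 88 and 134. The share of the summed FPKM held by the 43 genes was 0.749% after KCl in wild type, 0.815% in the cKO at basal KCl and 0.644% in the cKO after KCl. Wild type at basal KCl was the highest of the 4 libraries for 29 members, and the cKO after KCl was the lowest for 30. For the counts by level and by library the matching shares of all genes were not taken, so these counts do not set the group apart from the table.

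**Figure D1:**
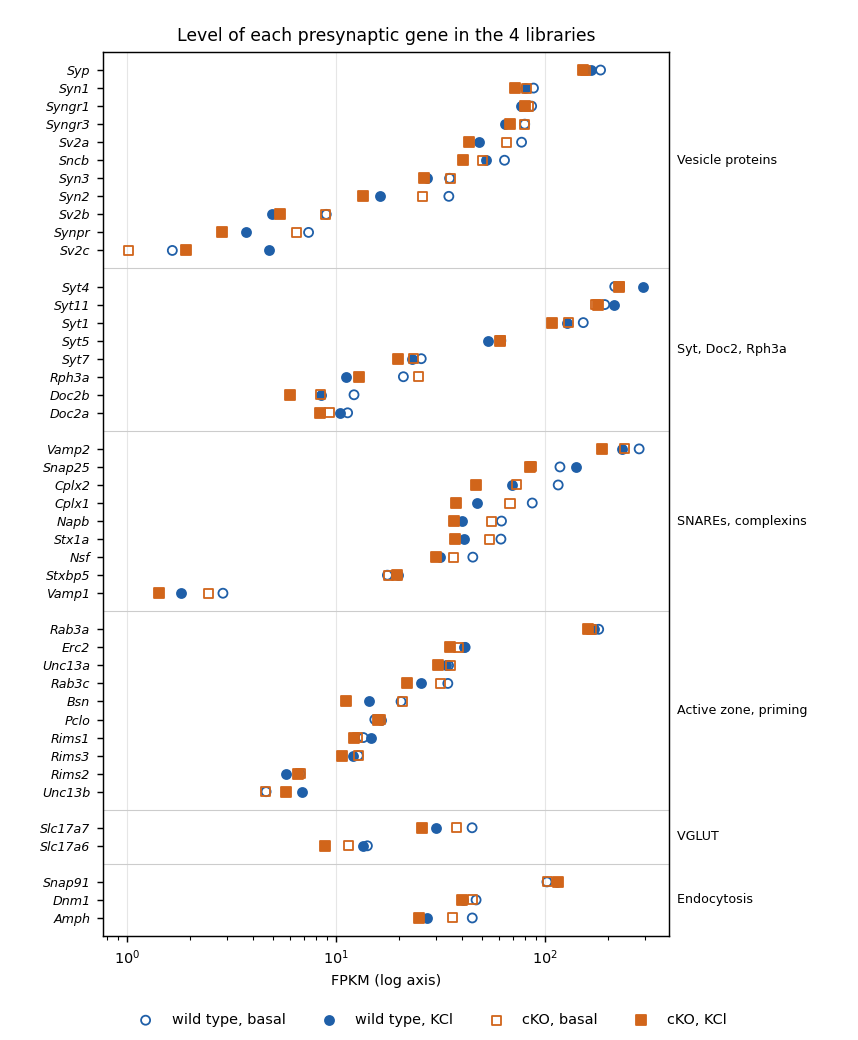
FPKM on a log axis for each of the 43 genes, grouped by role, with circles for wild type, squares for cKO, open symbols for basal KCl and filled symbols for 50 mM KCl. Each point is 1 library; the lowest gene at basal KCl is Sv2c (1.64 FPKM in wild type) and the highest is Vamp2 (281.5).

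The response to depolarization was mostly downward. In wild type 34 of the 43 members (79.1%) had a log2 ratio of KCl to basal below 0, beside 50.6% of all 13248 genes, with 1 FPKM added to both values. In the cKO 37 of 43 (86.0%) were below 0, beside 48.7% of all genes. The median log2 ratio of the members was −0.20 in wild type and −0.24 in the cKO, where the medians of all genes were −0.01 and 0.01. These genotypes share no library in this comparison, and 33 members (76.7%) were below 0 in both, beside 42.3% of all genes. Rescaling the libraries to ribosomal protein genes put the all-gene median at −0.36 and −0.40 and the members' at −0.60 and −0.69, with 40 and 42 of 43 members below 0. Astrocyte markers lay on the other side, with 9 of 10 above 0 in wild type (median 0.21) and 7 of 10 in the cKO (median 0.23), and their part in the members' ratios was not tested. In bulk libraries fewer cells of a type and less RNA per cell cannot be told apart.

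The sizes were modest. Counts of members past a fold use the log2 ratio with 1 FPKM added, which understates the change of low genes, while folds given with an interval are of the deposited values. Few members passed 2-fold: 1 was higher in wild type (Sv2c, beside 5.07% of all genes) and 1 lower (Syn2, beside 3.31%), and in the cKO none was higher (background 4.41%) or lower (3.09%). At 1.5-fold, 1 member was higher in wild type (background 12.7%) and 9 were lower, which is 20.9% beside 12.8% of all genes. In the cKO none was 1.5-fold higher (background 11.5%) and 7 were lower, 16.3% beside 11.1%. Of these, 6 of the 43 were 1.5-fold lower in both genotypes, beside 1144 of all 13248 genes: Syn2, Synpr, Sv2b, Rph3a, Cplx1 and Cplx2. None was 1.5-fold higher in both, beside 1119 of all genes. Ordering the 4 libraries without a threshold, 26 members (60.5%) had both basal values above both KCl values, beside 36.7% of all genes, and 4 (9.3%) had both KCl values above both basal values, beside 34.3%. Those 4 were Sv2c, Unc13b, Snap91 and Stxbp5, and the direction of Snap91 and Stxbp5 turned with rescaling to the ribosomal list in both genotypes, and that of Unc13b in the cKO.

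**Figure D2:**
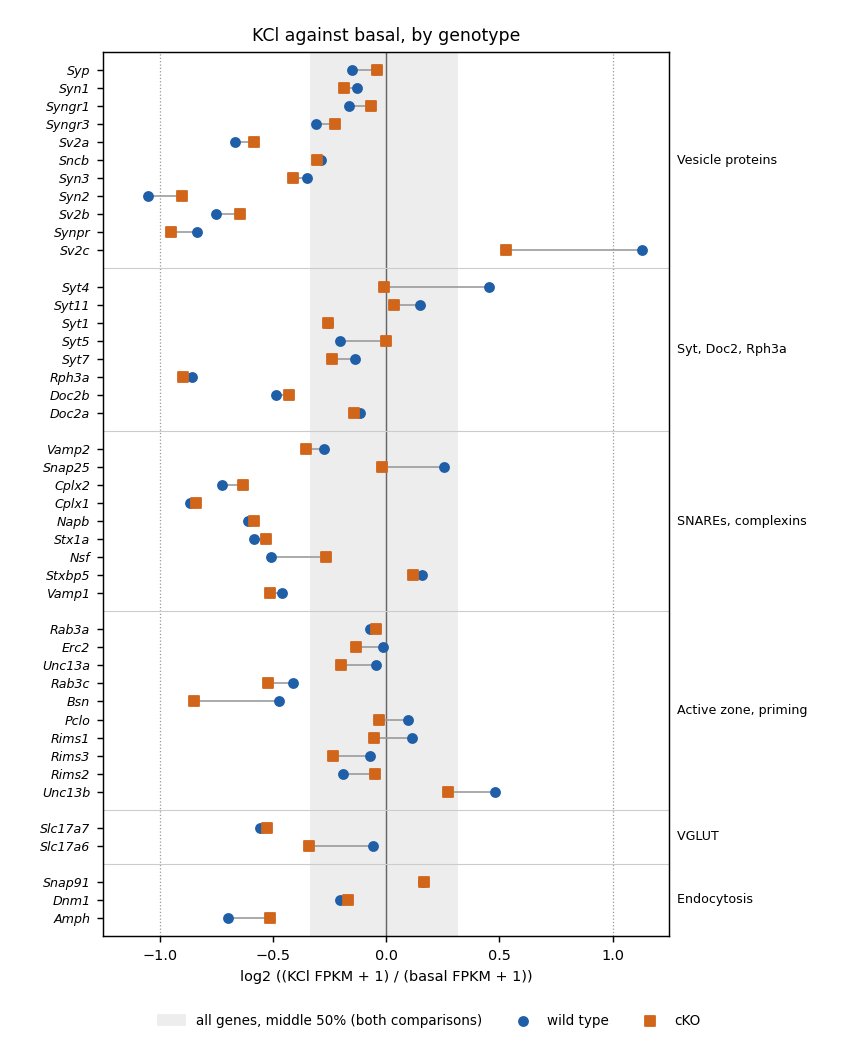
Log2 ratio of KCl to basal FPKM (1 added to both) for each gene, with wild type as circles and cKO as squares joined by a line; the grey band spans the middle 50% of all genes and dotted lines mark 2-fold. Sv2c lies farthest to the right (1.13 in wild type, 0.53 in the cKO), and Syn2, Synpr, Rph3a, Cplx1 and Sv2b lie to the left of the band in both genotypes.

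Vesicle proteins held both extremes. In the following, 4 FPKM values in a row give wild type first (basal, KCl) and then the cKO (basal, KCl). Sv2c, the rarest member of the SV2 family of vesicle glycoproteins, stood at 1.64, 4.79, 1.02 and 1.91. Both KCl values were above both basal values, and the wild-type KCl library stood apart from the other 3. The fold with KCl was 2.91 in wild type (95% counting interval 2.56 to 3.31) and 1.88 in the cKO (1.58 to 2.23). Such intervals come from the approximated fragments and cover counting error only. Its paralogs went the other way. Sv2a, the main SV2 of neurons, stood at 77.1, 48.1, 65.1 and 43.2 FPKM, and Sv2b at 8.96, 4.92, 8.93 and 5.35. Both had basal values above both KCl values, with Sv2b 1.82-fold lower in wild type (1.64 to 2.02) and 1.67-fold lower in the cKO (1.52 to 1.84).

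Synapsins, which tether vesicles into the reserve pool, were unequal. Syn2 stood at 34.6, 16.1, 26.0 and 13.5 FPKM, 2.14-fold lower with KCl in wild type (2.005 to 2.29) and 1.93-fold lower in the cKO (1.80 to 2.07). Its basal values lay well above its KCl values. Syn1 stood at 87.9, 80.4, 81.5 and 71.4, only 1.09-fold lower in wild type (1.05 to 1.13) and 1.14-fold in the cKO (1.10 to 1.18). Syn3 stood at 34.9, 27.2, 35.2 and 26.2, with the basal values again above the KCl values. Metalloproteinase inhibitor genes lie inside all 3 synapsin genes on the opposite strand, and whether strand was used in counting is not stated. Timp3, which in GENCODE M21 shares 1733 of the 12282 exon bases annotated for Syn3, stood at 20.4, 53.6, 17.0 and 114.1 FPKM, higher with KCl where Syn3 was lower. Timp4, which shares 90 bases with Syn2, stood at 4.84, 5.90, 4.33 and 3.92, and Timp1, which shares none with Syn1, at 0.31, 1.12, 0.56 and 3.10.

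The other vesicle proteins were lower with KCl in both genotypes. Synaptoporin (Synpr), a relative of synaptophysin, stood at 7.38, 3.70, 6.43 and 2.85 FPKM, 1.99-fold lower in wild type (1.74 to 2.27) and 2.25-fold lower in the cKO (1.95 to 2.60), so KCl and basal values did not overlap. Synaptophysin itself (Syp), the classical vesicle marker, differed far less, at 184.0, 165.6, 155.6 and 151.4. Among synaptogyrins, tetraspan vesicle proteins, Syngr1 stood at 86.1, 76.7, 83.6 and 79.8, and Syngr3 at 79.8, 64.2, 79.6 and 68.0. Both had basal values above both KCl values, and Syngr3 was 1.24-fold lower in wild type (1.18 to 1.31) and 1.17-fold in the cKO. β-Synuclein (Sncb), a chaperone-like terminal protein, stood at 63.9, 52.2, 50.3 and 40.6. Of the 11 vesicle genes 10 were below 0 in each genotype, with median log2 ratios of −0.31 and −0.30.

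Promoter sequences were available for 33 of the 43 members in the RefSeq table (GRCm38.p6, 250 bases before to 50 after each annotated start). They are shown for the 2 members past 2-fold with KCl, Sv2c and the first start of Syn2, for Syn1 as the synapsin that differed least, and for Cplx1 as the SNARE regulator with the lowest ratio in wild type. Capitals mark matches, on either strand, to CRE (TGACGTCA), AP-1 (TGANTCA), Egr (GCGNGGGCG) and GC box (GGGCGG) letters.

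Sv2c (chr13:96132528-96132827, minus strand): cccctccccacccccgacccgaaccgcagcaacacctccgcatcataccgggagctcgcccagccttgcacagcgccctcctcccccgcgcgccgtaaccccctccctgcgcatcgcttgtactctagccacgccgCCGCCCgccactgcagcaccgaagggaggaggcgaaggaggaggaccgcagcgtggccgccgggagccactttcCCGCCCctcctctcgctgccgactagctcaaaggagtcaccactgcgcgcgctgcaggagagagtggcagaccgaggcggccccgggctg

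Syn2 (chr6:115134652-115134951, plus strand): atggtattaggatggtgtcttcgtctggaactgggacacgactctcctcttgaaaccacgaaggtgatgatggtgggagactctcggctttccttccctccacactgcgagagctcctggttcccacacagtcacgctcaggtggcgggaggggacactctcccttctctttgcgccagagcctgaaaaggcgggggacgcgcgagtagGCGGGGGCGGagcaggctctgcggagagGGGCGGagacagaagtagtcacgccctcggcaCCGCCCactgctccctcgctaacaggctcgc

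Syn1 (chrX:20920869-20921168, minus strand): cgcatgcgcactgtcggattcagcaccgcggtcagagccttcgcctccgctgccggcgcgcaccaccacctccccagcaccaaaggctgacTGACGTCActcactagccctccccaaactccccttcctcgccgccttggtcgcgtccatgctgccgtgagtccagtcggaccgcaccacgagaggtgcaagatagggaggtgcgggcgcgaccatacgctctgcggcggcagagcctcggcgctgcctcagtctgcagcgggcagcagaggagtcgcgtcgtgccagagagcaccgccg

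Cplx1 (chr5:108549978-108550277, minus strand): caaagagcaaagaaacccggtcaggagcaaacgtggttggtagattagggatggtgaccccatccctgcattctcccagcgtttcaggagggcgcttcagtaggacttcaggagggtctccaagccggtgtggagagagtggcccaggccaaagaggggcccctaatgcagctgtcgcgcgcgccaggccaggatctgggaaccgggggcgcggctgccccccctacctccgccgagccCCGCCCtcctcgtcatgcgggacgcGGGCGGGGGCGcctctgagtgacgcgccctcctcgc

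The Sv2c window held 2 GC boxes and no match to the other 3 motifs. The Syn2 and Cplx1 windows each held an Egr match that overlaps a GC box, and the Syn1 window held a CRE, the only CRE in the 43 windows searched. Over the 43 windows of the 33 matched genes, a GC box was found in 62.8%, an Egr match in 16.3%, an AP-1 match in 4.65% and a CRE in 2.33%, against 62.8%, 10.9%, 4.8% and 3.09% of 11988 windows of the genes kept, and 35.7%, 5.55%, 7.81% and 1.79% of all 32851 windows. The short CRE core (TGACG), which every CRE holds, was in 16.3% of member windows, 30.3% of those of the genes kept and 20.8% of all windows. The E-box (CANNTG) was in 76.7%, 63.4% and 72.3%. The core of RE1, the neuronal repressor element, was searched as CAGCACC and GGACAG with 2 bases between them and no mismatch allowed. It matched no member window and only 0.0365% of all windows, so the lack of a match says little about a promoter. The Syn1 window holds CAGCACC and, after 2 bases, GGTCAG, where the search asked for GGACAG.

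Among synaptotagmins, Doc2 proteins and rabphilin, Rph3a had the lowest ratio with KCl in both genotypes, and Syt4 had the highest in wild type. Syt4 stood at 215.1, 295.3, 227.9 and 226.3 FPKM, so the wild-type KCl library was high and the other 3 lay close together. The fold with KCl was 1.37 in wild type (1.35 to 1.40) and 0.993 in the cKO (0.974 to 1.01). Syt11, its closest relative, stood at 192.6, 213.9, 174.0 and 178.3. It was 1.11-fold higher with KCl in wild type (1.09 to 1.13) and 1.02-fold in the cKO (1.005 to 1.045). It was lower with rescaling to the ribosomal list, and in the cKO also with upper-quartile and pan-neuronal rescaling. Rph3a, which encodes rabphilin, a Rab3 effector, stood at 20.96, 11.1, 24.8 and 12.8, 1.89-fold lower with KCl in wild type (1.75 to 2.04) and 1.93-fold lower in the cKO (1.80 to 2.07). Basal and KCl values of Rph3a did not overlap.

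Of the remaining synaptotagmin and Doc2 genes, Doc2b had the lowest ratios with KCl. Syt1, the fast calcium sensor of release, stood at 152.1, 127.0, 129.0 and 107.8 FPKM, and was 1.20-fold lower with KCl in both genotypes. Syt7, a slow high-affinity sensor, stood at 25.5, 23.1, 23.5 and 19.7. Syt5 stood at 61.3, 53.1, 61.0 and 61.1, with wild type after KCl the low library. Doc2 proteins bind calcium with high affinity and serve spontaneous release: Doc2b stood at 12.2, 8.41, 8.41 and 6.00, log2 ratios of −0.48 and −0.43 with KCl, and Doc2a at 11.3, 10.4, 9.32 and 8.35. Exons of Doc2a share 1103 of 2803 bases with Ino80e on the opposite strand, which stood at 18.6, 20.2, 20.5 and 19.6. The 8 genes had median log2 ratios of −0.17 and −0.19, with 6 of 8 below 0 in each genotype.

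SNAREs and their regulators had the lowest medians, −0.51 in both genotypes. Cplx1, a complexin, stood at 86.7, 47.1, 67.9 and 37.5 FPKM, 1.84-fold lower with KCl in wild type (1.75 to 1.94) and 1.81-fold lower in the cKO (1.71 to 1.91). Cplx2, the other complexin of the group, stood at 115.4, 69.4, 72.9 and 46.7, with wild type at basal KCl far above the other 3. It was 1.66-fold lower in wild type (1.61 to 1.71) and 1.56-fold lower in the cKO (1.51 to 1.62). For both complexins each basal value lay above both KCl values.

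The core SNAREs were not alike. Snap25 stood at 117.6, 140.8, 85.8 and 84.6 FPKM, so both wild-type libraries were above both cKO libraries. With KCl it was 1.20-fold higher in wild type (1.17 to 1.23) and at 0.986 of the basal level in the cKO (0.958 to 1.01). The wild-type direction turned with rescaling to the ribosomal list. Vamp2 stood at 281.5, 232.6, 238.4 and 186.6, and Stx1a at 61.4, 40.7, 54.1 and 37.2, both with KCl values below basal values. Vamp1, a synaptobrevin more typical of brainstem and spinal cord, was low at 2.87, 1.81, 2.46 and 1.42.

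Factors that recycle or restrain SNAREs made up the rest. Nsf, the ATPase that separates SNARE complexes, stood at 45.0, 31.4, 36.5 and 30.2 FPKM, 1.435-fold lower with KCl in wild type (1.36 to 1.51) and 1.21-fold in the cKO (1.15 to 1.27). Napb, which encodes its adaptor β-SNAP, stood at 61.8, 40.1, 55.6 and 36.8, lower by 1.54-fold (1.48 to 1.61) and 1.51-fold (1.45 to 1.58). Stxbp5 (tomosyn), an inhibitor that competes for syntaxin, went the other way at 17.6, 19.8, 17.9 and 19.5, higher with KCl in both genotypes except with rescaling to the ribosomal list.

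Active zone and priming genes lay nearest to all genes, with wild type at a median log2 ratio of −0.06 and the cKO at −0.09. Bsn and Pclo, which encode the giant scaffolds Bassoon and Piccolo, differed from each other. Bsn stood at 20.4, 14.4, 20.8 and 11.1 FPKM, 1.42-fold lower with KCl in wild type (1.36 to 1.47) and 1.87-fold lower in the cKO (1.80 to 1.95). Pclo stood at 15.3, 16.4, 16.3 and 15.9, with all 4 libraries close together. The priming factors also parted. Unc13b (Munc13-2) stood at 4.62, 6.85, 4.57 and 5.74, 1.48-fold higher with KCl in wild type (1.39 to 1.59) and 1.26-fold in the cKO (1.17 to 1.34), where the direction turned with rescaling to the ribosomal list. Unc13a (Munc13-1) stood at 34.5, 33.4, 35.4 and 30.7.

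The remaining genes of this group were scaffolds and GTPases. Rims1, Rims2 and Rims3 encode Rim scaffolds that recruit calcium channels and vesicles. Rims1 stood at 13.5, 14.7, 12.7 and 12.2 FPKM, Rims2 at 6.71, 5.75, 6.78 and 6.53, and Rims3 at 12.7, 12.1, 12.7 and 10.7. Erc2 (ELKS2) stood at 41.4, 40.9, 38.5 and 35.0. Of the vesicle GTPases, Rab3a was nearly level at 180.2, 171.4, 166.1 and 161.0, and Rab3c was lower with KCl at 34.2, 25.5, 31.6 and 21.7, basal values above KCl values.

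Both vesicular glutamate transporters were lower with KCl, by unequal amounts. Slc17a7 (VGLUT1), typical of mature cortical excitatory neurons, stood at 44.7, 30.1, 37.7 and 25.9 FPKM, 1.49-fold lower in wild type (1.40 to 1.57) and 1.46-fold lower in the cKO (1.37 to 1.55). Slc17a6 (VGLUT2), more typical of subcortical and young neurons, stood at 14.1, 13.5, 11.5 and 8.88, 1.045-fold lower in wild type (0.964 to 1.13) and 1.296-fold in the cKO (1.18 to 1.42). Neuronal subtype markers differed with KCl too. Over 13 interneuron markers the summed level was 193.0 and 98.8 FPKM in wild type (basal, then KCl) and 176.8 and 94.2 in the cKO, and over 11 excitatory neuron markers 414.9 and 382.5, and 443.0 and 275.4. Pvalb and Vip were under 1 FPKM in all libraries. Their part in the members' values was not tested. The 19 pan-neuronal markers had median log2 ratios of 0.00 and 0.04 with KCl, above the members' −0.20 and −0.24. Of these markers 10 were above 0 for wild type and 11 for the cKO. Tubb3, the lowest at −2.09 and −2.05, was the only 1 of them that was 1.5-fold lower in either genotype. The summed level of the 19 markers was lower after KCl: wild type 6144 (basal) and 5298 FPKM (KCl), cKO 5699 and 4996. So was the members' summed level: wild type 2763 and 2477, cKO 2460 and 2130. With rescaling to the pan-neuronal list the members' medians were −0.20 and −0.29.

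Of the 3 endocytic genes 1 was higher with KCl and 2 were lower in both genotypes, by unequal amounts. Snap91 (AP180), a clathrin assembly protein of nerve terminals, stood at 101.9, 114.2, 102.1 and 114.8 FPKM, 1.12-fold higher with KCl in wild type (1.09 to 1.15) and 1.125-fold in the cKO (1.10 to 1.15) and lower with rescaling to the ribosomal list. Dnm1, the neuronal dynamin that cuts vesicles free, stood at 46.7, 40.5, 45.0 and 39.9. Amphiphysin (Amph), which brings dynamin to the vesicle neck, stood at 44.8, 27.2, 35.9 and 24.8, lower by 1.64-fold in wild type (1.55 to 1.74) and 1.445-fold in the cKO (1.36 to 1.53).

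**Figure D3:**
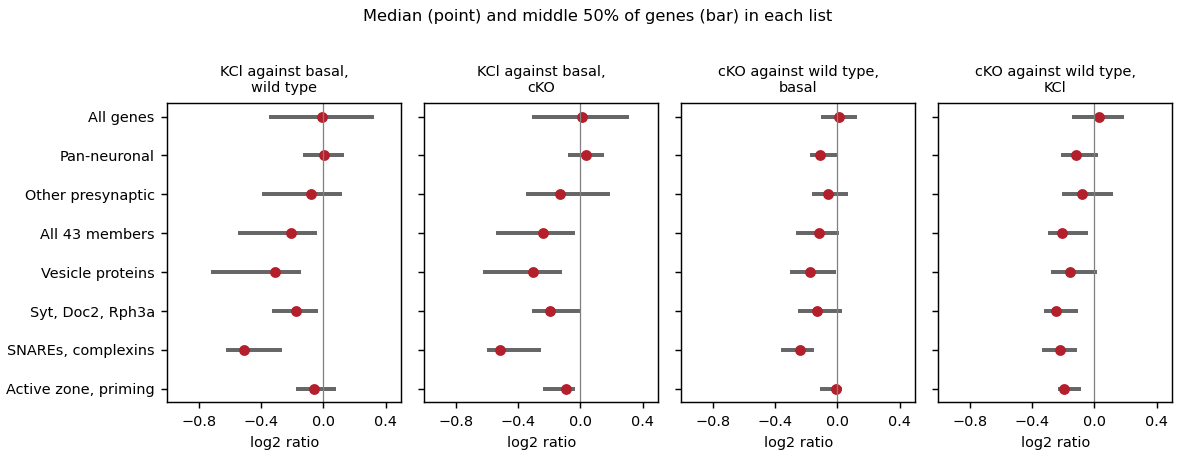
Median log2 ratio (point) and the middle 50% of genes (bar) for all genes, pan-neuronal markers, other presynaptic genes, the 43 members and 4 of their role groups, in each of the 4 comparisons. With KCl the SNARE and complexin group has the lowest median (−0.51 in both genotypes) and the active zone group lies near all genes.

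Ratios between paralogs within a library do not depend on the scaling of that library, and they restate the values above as a share of the family's summed FPKM. Sv2c made up 1.88% of SV2 in wild type at basal KCl (counting interval 1.67 to 2.09) and 8.27% after KCl (7.75 to 8.82), and 1.35% (1.18 to 1.55) and 3.78% (3.42 to 4.17) in the cKO. The share of Syn2 among synapsins was 22.0% (21.3 to 22.7) and 13.1% (12.4 to 13.7) in wild type and 18.2% (17.5 to 18.9) and 12.1% (11.5 to 12.8) in the cKO. Bsn held 57.2% of Bsn plus Pclo at basal KCl and 46.8% after KCl in wild type, and 56.0% and 41.0% in the cKO. Unc13b held 11.8% and 17.0% of Munc13 in wild type and 11.4% and 15.8% in the cKO. In these 4 families the share lay on the same side of its basal value after KCl in both genotypes. For Slc17a6 among the 2 transporters the shares were 24.0% and 31.0% in wild type, whose intervals (22.8 to 25.2, and 29.5 to 32.5) do not meet, and 23.4% and 25.6% in the cKO, whose intervals (22.1 to 24.7, and 24.0 to 27.1) do. Syt4 held 33.3% and 41.5% of the 5 synaptotagmins in wild type and 37.0% and 38.2% in the cKO. Vamp2 held 98.98% to 99.25% of Vamp1 plus Vamp2 in every library.

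**Figure D4:**
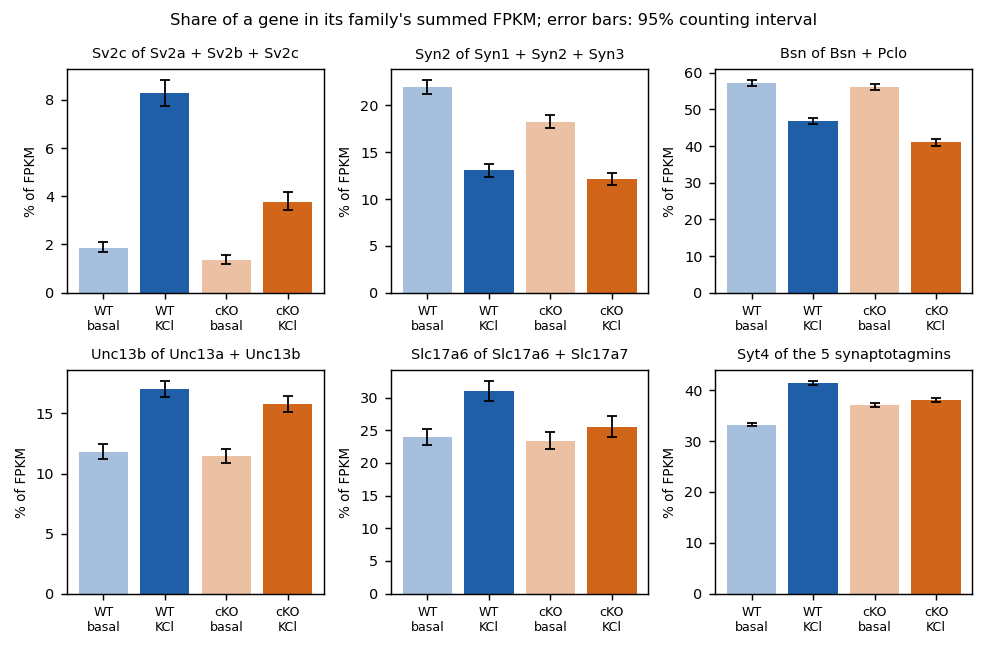
Share of 6 genes in the summed FPKM of their family, in percent, for the 4 libraries (blue, wild type; orange, cKO; pale, basal; full colour, KCl), with 95% counting intervals as error bars. After KCl Sv2c holds 8.27% of its family (wild type) and 3.78% (cKO), and the share of Syn2 is lower with KCl in both genotypes.

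Other genes of the terminal, listed by function and not members, were nearer to all genes. Of 71 listed, 65 reached 1 FPKM. With KCl 39 of 65 (60.0%) were below 0 in each genotype, with median log2 ratios of −0.08 and −0.13. None was 2-fold higher in either genotype, 1 was 2-fold lower in wild type and 2 in the cKO. Slc32a1, the vesicular GABA transporter of inhibitory neurons, was lower in both, at 17.5, 2.83, 12.9 and 2.22 FPKM. Syt13, an atypical synaptotagmin, passed 2-fold in the cKO and not in wild type (5.55, 2.89, 5.80 and 2.26). The highest ratio belonged to Picalm, the ubiquitous relative of Snap91, at 81.6, 162.8, 94.1 and 177.7. Like Picalm named after its values were seen, the clathrin heavy chain gene Cltc stood at 118.8, 175.6, 129.6 and 169.9, with both KCl values above both basal values.

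The comparison of genotypes at basal KCl asks how the release machinery stood with Brg1 reduced and no depolarization. In the cKO 34 of 43 members (79.1%) were below 0, beside 47.3% of all genes, and the median log2 ratio was −0.12, beside 0.01 for all genes. No member was 2-fold higher (background 0.936%) or lower (0.551%), and none was 1.5-fold higher (3.95%). Cplx2 alone was 1.5-fold lower with 1 FPKM added (background 1.45%), and its deposited values differed by 1.58-fold (1.54 to 1.63). Next came Doc2b, 1.45-fold lower (1.32 to 1.59), Snap25, 1.37-fold lower (1.335 to 1.41), Syn2, 1.33-fold lower (1.26 to 1.41), and the low Sv2c, 1.62-fold lower (1.35 to 1.94). Rph3a was the highest, 1.18-fold above wild type (1.11 to 1.26), followed by Pclo, 1.065-fold (1.03 to 1.10), and Syt4, 1.06-fold (1.04 to 1.08). By role the medians ran from −0.25 for the 2 glutamate transporters and −0.24 for SNAREs and complexins to −0.01 for active zone genes. The 19 pan-neuronal markers had a median of −0.11, close to the members. With rescaling to that list the members' median was −0.02 and 26 of 43 were below 0, while the median of all genes moved to 0.10.

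After KCl the genotypes lay further apart. In the cKO 36 of 43 members (83.7%) were below 0, beside 44.6% of all genes, with a median log2 ratio of −0.21 beside 0.03. Again no member was 2-fold higher (background 1.87%) or lower (0.944%), and none was 1.5-fold higher (5.56%). Sv2c and Snap25 were 1.5-fold lower (background 3.32%). Sv2c had a log2 ratio of −0.99, just inside 2-fold with 1 FPKM added, while its deposited values differed by 2.51-fold (2.23 to 2.83). Snap25 was 1.67-fold lower (1.62 to 1.71), Slc17a6 1.52-fold (1.39 to 1.66), Cplx2 1.49-fold (1.44 to 1.54), Doc2b 1.40-fold (1.26 to 1.56) and Syt4 1.305-fold (1.28 to 1.33). On the other side Syt5 was 1.15-fold higher (1.08 to 1.22) and Rph3a 1.16-fold (1.06 to 1.26). With rescaling to the pan-neuronal list the members' median was −0.16, with 33 of 43 below 0, while the median of all genes moved to 0.07.

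These genotype comparisons have no library in common, though sex goes with genotype in both. Of the 43 members 30 (69.8%) were below 0 in both, beside 27.7% of all genes. For 10 members (23.3%) both wild-type values were above both cKO values, beside 8.9% of all genes: Snap25, Doc2b, Doc2a, Slc17a6, Sncb, Syt11, Syp, Rab3a, Erc2 and Rims1, where the basal direction of Rims1 turned with rescaling to the pan-neuronal list. No member had both cKO values above both wild-type values, beside 12.4% of all genes. Syp and Syn1 are X-linked; in the cKO Syp was lower by 1.18-fold at basal KCl (1.15 to 1.22) and by 1.09-fold after KCl (1.06 to 1.12), and Syn1 1.08-fold (1.04 to 1.12) and 1.125-fold (1.08 to 1.17). The sum of 12 microglial markers was higher in the cKO, at 239.0 (wild type) and 479.7 FPKM (cKO) at basal KCl. So was that of 10 vascular and fibroblast markers, at 21.2 and 62.7. After KCl these sums were 283.2 and 620.5, and 36.5 and 135.1. Of the vascular and fibroblast markers only 6 reached 1 FPKM. Pecam1, Kdr and Lum were under it in all libraries, Cldn5 was at 0 throughout, and Dcn was level at basal KCl (log2 ratio −0.01). Oligodendrocyte markers were lower in the cKO, at 629.7 and 401.8 at basal KCl and 735.4 and 362.0 after KCl. Of these 10 markers 8 and 9 were below 0, and Cspg4 was the highest, at 0.45 and 0.82. Excitatory neuron markers summed to 414.9 and 443.0 at basal KCl, with 8 of 11 above 0. After KCl they were lower, at 382.5 and 275.4, with 10 of 11 below 0. Interneuron markers had median log2 ratios of −0.26 at basal KCl and −0.25 after KCl, with 9 and 8 of 11 below 0. The part of all these markers in the members' lower values was not tested.

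**Figure D5:**
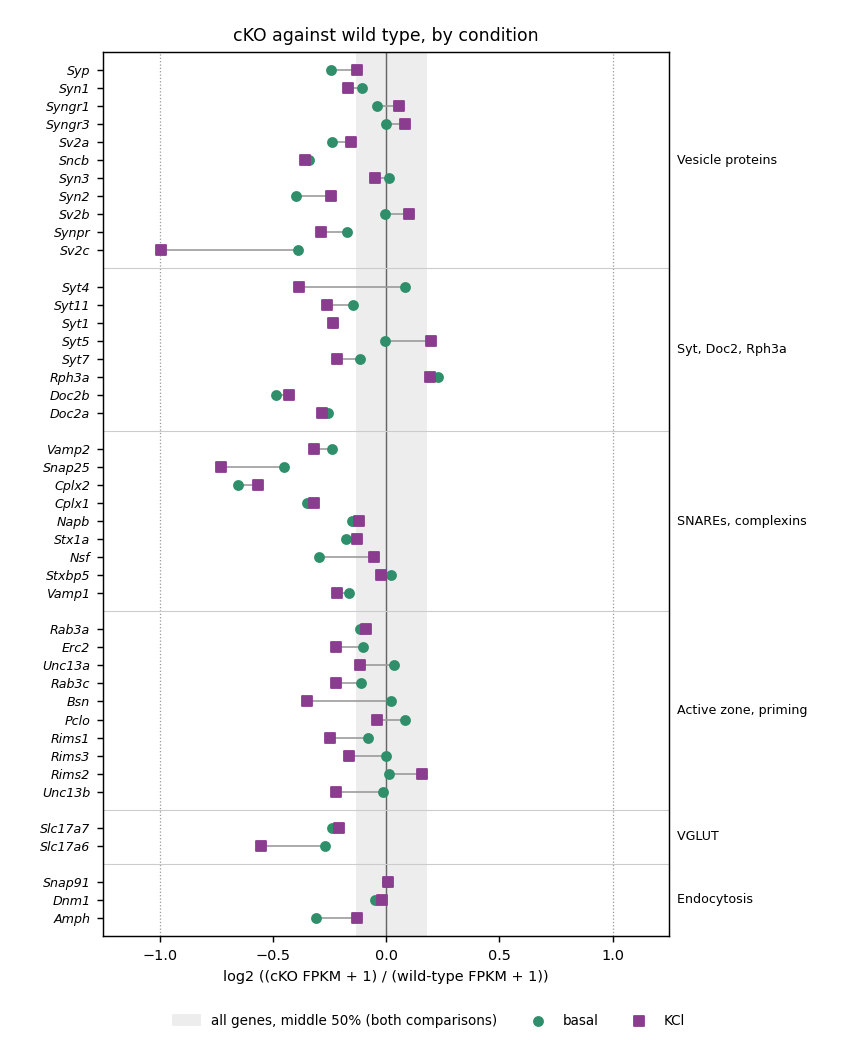
Log2 ratio of cKO to wild-type FPKM (1 added to both) for each gene, with basal KCl as circles and 50 mM KCl as squares joined by a line; the grey band spans the middle 50% of all genes and dotted lines mark 2-fold. Most points lie left of 0, Cplx2 is the lowest at basal KCl (−0.65) and Sv2c the lowest after KCl (−0.99).

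The difference in KCl response, the log2 ratio in the cKO minus that in wild type, asks whether depolarization acted alike in both genotypes. For the members it centred on 0: 23 of 43 (53.5%) were below 0, beside 45.5% of all genes, with a median of −0.03 beside 0.02. With rescaling to the ribosomal or to the pan-neuronal list, 31 of 43 were below 0, with medians of −0.07 and −0.08. The median of all genes moved the same way, to −0.03 under both. None was past 2-fold upward (background 0.672%) or downward (0.793%). None was past 1.5-fold upward (background 1.97%), and Sv2c alone, 2.33% of the members, was past it downward (2.85%). With all 4 libraries in each value, the most negative were Sv2c (−0.60), Syt4 (−0.47), Bsn (−0.37), Slc17a6 (−0.28), Snap25 (−0.28) and Unc13b (−0.21). Of these, Sv2c, Syt4, Snap25 and Unc13b were higher with KCl in wild type. In the cKO the ratio was smaller for Sv2c and Unc13b and close to level for Syt4 and Snap25. For Snap25 in wild type and Unc13b in the cKO, rescaling to the ribosomal list turned the direction. For Bsn and Slc17a6 the ratio was below 0 in both genotypes and lower in the cKO. The most positive were Nsf (0.24), Syt5 (0.21), Amph (0.18), Syn2 (0.15) and Rims2 (0.14). For Nsf, Amph and Syn2 the ratio was below 0 in both genotypes and nearer to 0 in the cKO, whose basal level was the lower of the pair. By role, 8 of 10 active zone genes were below 0 (median −0.14), against 4 of 9 SNARE genes (median 0.03) and 5 of 11 vesicle genes (median 0.08). These differences were not tested, since no residual degree of freedom exists.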

How the data were processed

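Cultured cortical neurons were profiled by RNA-seq in 4 libraries, 1 for each genotype and KCl condition. The authors deposited 1 FPKM value per gene and library; the unit was read from the values. Alignment used TopHat 1.3.2 and the mouse build was mm9, per the submitters' processing notes. The program behind the gene values, like its annotation, filters and strand setting, was not given in the sources used here. A gene was kept if any library reached 1 FPKM, and log2 ratios were taken after adding 1 FPKM. Named genes were all 43 members, with folds for those past 2-fold or among the 5 highest or lowest in a comparison and for their paralogs, other presynaptic genes past 2-fold, the genes that check the labels, the Timp genes inside synapsin genes, and a few said to be chosen after their values were seen. The members and lists were chosen with earlier results of these data known. With 1 library per group no test was run, since no spread between cultures can be estimated. Depth is not given by the files, so fragments were approximated from the spacing of FPKM times length over 1454 single-transcript genes of more than 2000 bases. Exact binomial 95% intervals on them cover counting error only and take the approximated depth as exact. Alternatives were an added value of 0.1 or 0.5 FPKM, no filter or a minimum of 5 FPKM, a 1.5-fold count, and rescaling by median of ratios, upper quartile, 77 ribosomal protein genes or 19 pan-neuronal genes. Gene overlaps were read from GENCODE M21 and promoters from RefSeq (GRCm38.p6), both on another build than the files, so no coordinates were joined to the values. The 2-fold counts were also run on simulated counting noise, with 4-fold changes set in genes averaging 5 FPKM or more. Each comparison recovered 99 or 100 of the 100 set in each direction, and 22 to 29 unchanged genes passed 2-fold. The simulation held no spread between cultures and no smaller changes, so it does not bear on the members' differences under 2-fold. Python 3.11.15, NumPy 2.4.6, pandas 2.3.3, SciPy 1.17.1 and matplotlib 3.10.9 were used.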

Additional observations from a re-analysis of the deposited data

Results flagged for a closer look

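The cKO-to-wild-type log2 ratio of Syt4 was 0.08 at basal KCl and −0.38 after KCl, a difference of −0.47. The signs were opposite, and for both ratios the counting interval of the fold left out 1, which held for no other of the 43 members. The difference was not tested, as each group is 1 library.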

How the results depend on the processing

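No paired analysis was possible because each group holds 1 library. No ratio past 2-fold changed sign under an alternative, while among smaller ratios the sign of 6 members with KCl in wild type and 5 in the cKO turned with ribosomal rescaling, and that of 8 members between genotypes at basal KCl turned with pan-neuronal rescaling. Of the medians and counts, 110 stayed and 20 did not. A median stayed if it shifted by less than the median half-width of the single members' counting intervals. Counts, those at 1.5-fold among them, stayed if within 1.5 times the 2-fold count. Of single-gene ratios 362 stayed within the half-width of the gene's own interval and 73 did not. These covered only Sv2c, Syn2, Snap25, Syt4, Bsn, Cplx1, Cplx2, Unc13b, Syt11, Snap91 and Stxbp5. The members' median log2 ratio with KCl was −0.60 in wild type and −0.69 in the cKO with ribosomal rescaling, and −0.31 in the cKO with upper-quartile rescaling. At basal KCl the members' median genotype ratio was −0.017 with pan-neuronal rescaling, beside 0.101 for all genes. The count 2-fold higher with KCl in wild type was 0 with a minimum of 5 FPKM, which leaves out Sv2c and Vamp1, and 0 with ribosomal rescaling. The count 2-fold lower with KCl was 9 in both genotypes with ribosomal rescaling, beside 10.2% (wild type) and 10.1% (cKO) of all genes under that rescaling, and 1 in the cKO with 0.1 or 0.5 FPKM added or upper-quartile rescaling. The count 2-fold lower in the cKO after KCl was 1 with 0.1 or 0.5 FPKM added, median of ratios or ribosomal rescaling. At 1.5-fold the counts of lower members were 9 and 7 with KCl (wild type, cKO), 1 and 2 between genotypes (basal, after KCl) and 1 for the difference in KCl response. The cause of the moved values was not tested, apart from the genes that a filter removed. Depth limits the low members: Vamp1 rests on as few as 188 approximated fragments in a library.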

Other observations

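Across the 43 members the difference in KCl response (log2 ratio in the cKO minus that in wild type) was lower for longer transcripts, with a Pearson correlation of −0.49 with log2 transcript length, where over 11995 genes it was −0.06. The KCl ratio in wild type had a correlation of 0.34 with length over the members and −0.01 over all genes. These are descriptions across genes that share the same 4 libraries, and genes are not independent replicates.

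In the GENCODE annotation 14 members shared exon bases with another gene, 13 of them with a gene on the opposite strand, and 4 shared over 10% of their exon bases (Syn3, Syp, Syt4 and Doc2a). Araf, which shares 9 exon bases with Syn1, stood at 76.8, 90.2, 78.2 and 87.5 FPKM in wild type (basal, KCl) and the cKO (basal, KCl). Mpv17l2, which shares 29 bases with Rab3a, stood at 11.3, 12.9, 11.6 and 11.9. Snap23, the ubiquitous relative of Snap25 and named after its values were seen, stood at 6.06, 11.1, 7.12 and 14.1, with both KCl values above both basal values.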
